A study of Mus musculus with 30 samples.

Results

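The comparison described here is the change of the effect of Wnt-C59 (C59) on gene expression in mouse forelimb buds between 12 h and 18 h after one injection. C59 is a small molecule that inhibits porcupine, the enzyme that attaches a lipid to WNT proteins and so allows their secretion. The libraries were chosen by their labels as all DMSO and C59 libraries of the 12 h and 18 h collections, which gave 12 of the 30 RNA-seq libraries of the series. All 4 groups were forelimb buds of wild-type Swiss Albino embryos whose mothers were injected intraperitoneally at E10.5. Each group held 3 libraries. The control groups received DMSO in phosphate-buffered saline, and the treated groups received C59 in saline with methylcellulose, detergent and DMSO, so the compound and the other parts of its vehicle cannot be told apart. Each library was made from polyA RNA, and the study's methods give its source as a single pair of forelimb buds, of either sex. Buds were stage-matched. Treated ones were staged by the time since injection and by their size and shape beside wild-type buds. According to the study's methods, replicates were different embryos and came from several litters for each condition and time. The litter of each library was not given. The p-values rest on the spread between the 3 libraries within a group, pooled over the 4 groups. Because the mother received the compound and porcupine acts on WNT ligands in general, single ligands, the tissues of the bud and effects passed on from the mother cannot be told apart in these samples.

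In the best known branch of the pathway, a secreted WNT binds a Frizzled receptor together with an LRP co-receptor, β-catenin is spared from degradation, and TCF/LEF proteins at the DNA then activate their targets. Several of those targets encode inhibitors of the pathway itself, and they are used as a readout of its activity. In the limb bud, WNT signaling acts together with FGFs of the apical ectodermal ridge, SHH of the posterior mesenchyme and the BMP antagonist GREM1 to sustain outgrowth, while WNTs from the ectoderm hold back cartilage differentiation in the mesenchyme beneath. The question of the comparison was which of the expression changes seen 12 h after C59 had become smaller by 18 h, which had persisted and which appeared only then.

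The effect is here the log2 ratio of C59 to DMSO at one time point, and the difference of effects is the effect at 18 h minus the effect at 12 h. A positive difference therefore belongs to a gene that was low in C59 at 12 h and less so at 18 h, or to a gene that became higher in C59 by 18 h. Levels are CPM, that is, counts scaled to the normalized library size, and they compare one gene between libraries, not genes with each other. A difference, or a change of one treatment with time, passed at an adjusted p below 0.05 from the edgeR quasi-likelihood test over 13694 autosomal protein-coding genes. An effect was called when it also lay beyond 1 on the log2 scale, and errors of log2 values are standard errors (SE). Where a passing difference no longer passed on leaving out single libraries in turn, the number of such fits among 12 is given as lost.

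One of the 12 libraries stood apart, and it enters every C59 level, effect and difference that uses 18 h. Through the pooled spread it also enters p-values of comparisons that do not hold it. Leaving it out took the genes with a 12 h effect of any size at an adjusted p below 0.05 from 4632 to 6341. In counts compared gene by gene, replicate 3 of C59 at 18 h differed from replicates 1 and 2 with chi-square values per degree of freedom of 47.6 and 39.9, against 4.33 between those replicates and 3.56 to 17.3 within the other groups. Replicate 3 lay more than 0.5 log2 from the mean of replicates 1 and 2 at 2793 genes (20.4%). The biological coefficient of variation was 15.4% in C59 at 18 h and 6.15% to 8.57% in the other groups. Among the gene lists below, mitotic genes were lower in it (median -0.31), and genes of muscle contraction (0.55) and of erythroid cells (0.45) were higher. Results are therefore given with and without this library, which is called replicate 3 from here on. Depth ran from 18252021 to 38974885 counts. The forelimb marker *Tbx5* lay between 253 and 336 CPM in all 12 libraries and the hindlimb marker *Tbx4* between 12.0 and 22.8 CPM. Y-linked genes were above 1 FPKM in 1 or 2 libraries of each group, and 3 of these libraries also held *Xist*. Whether these 3 libraries held RNA of more than a single embryo was not tested.

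The effect of C59 changed between 12 h and 18 h at 1162 of the 13694 genes (8.49%), with a positive difference at 676 (4.94%) and a negative one at 486 (3.55%). Without replicate 3 the count was 2105 (1239 positive and 866 negative), and without DMSO 12 h replicate 3 it was 656. With upper-quartile scaling the split was 534 positive and 633 negative, and on log2(FPKM + 1) it was 413 and 532. The median difference over all genes was -0.01, and 286 of the passing genes had a difference beyond 1. At 12 h, 698 genes were called (5.1%), of which 492 were higher and 206 lower in C59. At 18 h, 211 genes were called (1.54%), 97 higher and 114 lower. A total of 81 genes were called at both times, which is 11.6% of the genes called at 12 h and 38.4% of those called at 18 h. Of these, 74 had the same direction at both times. The size of the effect was smaller at 18 h at 8305 of the 13694 genes. The shares of 8.49%, 4.94% and 3.55% are the background for the counts of each gene list below.

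The number of genes that changed over time in each arm depended on the tool and on the libraries in the fit. The DMSO change holds no C59 library, but its p-values use the spread pooled over all groups. From 12 h to 18 h, 418 genes changed in the DMSO libraries (3.05%) and 1751 in the C59 libraries (12.8%). These shares are the background for the counts of list genes that changed in each arm. In DMSO, 297 genes rose and 121 fell. In C59, 961 genes rose and 790 fell. With limma voom the order was opposite, with 1436 genes in DMSO and 906 in C59. Without replicate 3 the counts were 1640 for DMSO and 2760 for C59, and without DMSO 12 h replicate 3 only 78 genes passed in DMSO. Both ways of changing the effect are described below, since a difference of effects arises when the treated level moves towards a steady control, when the control rises to a level the treated samples already had, or when both move.

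**Figure D1:**
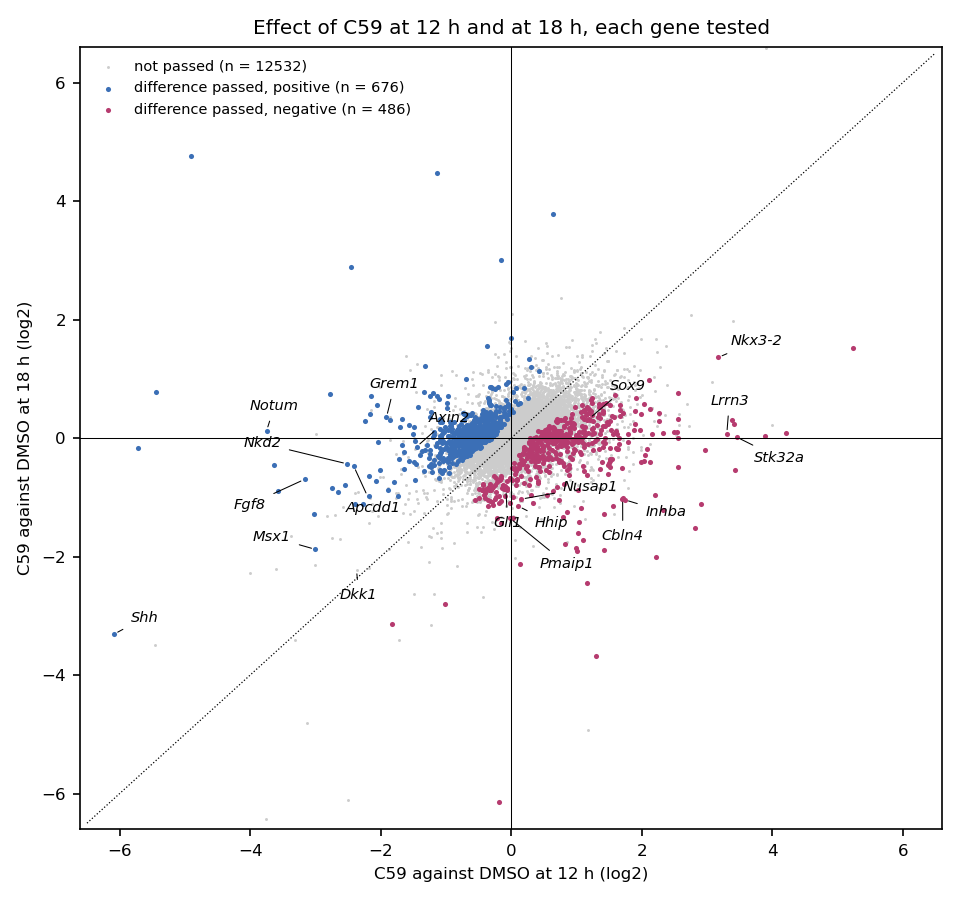
Effect of C59 (log2 of C59 over DMSO) at 12 h on the horizontal axis and at 18 h on the vertical axis, 1 point for each of the 13694 genes tested, with 1 gene beyond the axis limits. Blue (676) and purple (486) points are genes whose difference of effects passed in the positive and the negative direction, and the dotted line marks equal effects. *Axin2*, *Notum* and *Grem1* lie near 0 at 18 h, while *Dkk1* and *Msx1* stay low at both times.

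Several negative-feedback genes of the WNT pathway had large positive differences. In a list of 17 tested secreted and intracellular inhibitors of WNT signaling, 8 passed with a positive and 1 with a negative difference (8.49% of all genes passed), and the same counts were found without replicate 3. The negative count was 0 without DMSO 12 h replicate 1 and 2 without C59 18 h replicate 1. The median effect of the list was -0.50 at 12 h and 0.12 at 18 h, and the median difference was 0.36, against -0.01 over all genes. Over the same interval the median change was 0.03 in DMSO and 0.39 in C59.

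*Axin2* (chr11:108920349-108950783, plus strand), which encodes a scaffold of the β-catenin destruction complex and is a general WNT target, measured 114, 112 and 114 CPM in the DMSO libraries at 12 h and 40.0, 39.8 and 44.8 CPM in C59. At 18 h it measured 112, 109 and 111 CPM in DMSO and 107, 90.9 and 102 CPM in C59. All C59 libraries were below all DMSO libraries at both times, by a wide margin at 12 h and by a narrow one at 18 h. The effect was -1.45 at 12 h and -0.14 at 18 h, the latter with an adjusted p of 0.201, and the difference was 1.30 ± 0.11 (adjusted p = 1.2e-05; 1.29 without replicate 3). *Axin2* did not pass in DMSO over time (-0.04) and rose in C59 by 1.27 on the log2 scale.

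*Notum*, a secreted enzyme that removes the lipid of WNT proteins, measured 6.78, 8.41 and 7.95 CPM in DMSO and 0.841, 0.303 and 0.612 CPM in C59 at 12 h. Its levels at 18 h were 5.97, 5.81 and 5.36 CPM in DMSO and 6.16, 4.99 and 7.51 CPM in C59, so that the groups, far apart at 12 h, overlapped. The difference was 3.87 ± 0.34 (adjusted p = 1.5e-05; 3.72 without replicate 3), and the 18 h effect of 0.12 did not pass. *Nkd2*, an intracellular inhibitor that binds Dishevelled, measured 100, 98.9 and 102 CPM in DMSO and 16.0, 16.0 and 20.7 CPM in C59 at 12 h. At 18 h its levels were 107, 101 and 105 CPM in DMSO and 71.9, 72.2 and 86.7 CPM in C59, which left every treated library below every control. The difference was 2.07 ± 0.14 (adjusted p = 5.3e-06; 1.98 without replicate 3), and the 18 h effect was still -0.44 (adjusted p = 0.00879).

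The other passing inhibitors had smaller differences than *Nkd2*. These were 1.94 ± 0.16 (1.88 without replicate 3) for *Apcdd1*, a membrane inhibitor, 1.12 ± 0.16 (1.09 without replicate 3) for *Wif1*, which binds WNTs outside the cell, and 1.11 ± 0.10 (1.08 without replicate 3) for *Nkd1*, the relative of *Nkd2*. *Znrf3*, a ligase that removes Frizzled receptors from the surface, followed with 0.64 ± 0.14 (0.68 without replicate 3). *Dkk2*, which binds the LRP co-receptors, was the exception in how it arose: it rose in DMSO by 0.85 and in C59 by 1.40, and the difference was 0.55 ± 0.14 (0.58 without replicate 3; lost in 9 of 12 leave-one-out fits). *Dkk3* passed in the opposite direction (-0.63 ± 0.15 (-0.67 without replicate 3; lost in 1 of 12 leave-one-out fits)), with an effect of 0.75 at 12 h and 0.12 at 18 h.

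*Dkk1*, a secreted inhibitor of the LRP co-receptors, contrasted with these genes. It measured 12.8, 12.5 and 14.3 CPM in DMSO and 1.68, 2.81 and 3.06 CPM in C59 at 12 h, and 12.7, 10.3 and 8.78 CPM in DMSO and 2.10, 2.29 and 2.39 CPM in C59 at 18 h. The treated libraries were about as far below the controls at 18 h as at 12 h. The effect was -2.37 at 12 h and -2.22 at 18 h, and the difference of 0.15 ± 0.28 (adjusted p = 0.803; 0.11 without replicate 3) did not pass. *Sfrp2*, which binds WNTs, was high in C59 at both times, with effects of 1.17 and 1.03 and a difference of -0.13 ± 0.15 (-0.14 without replicate 3) that did not pass.

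**Figure D2:**
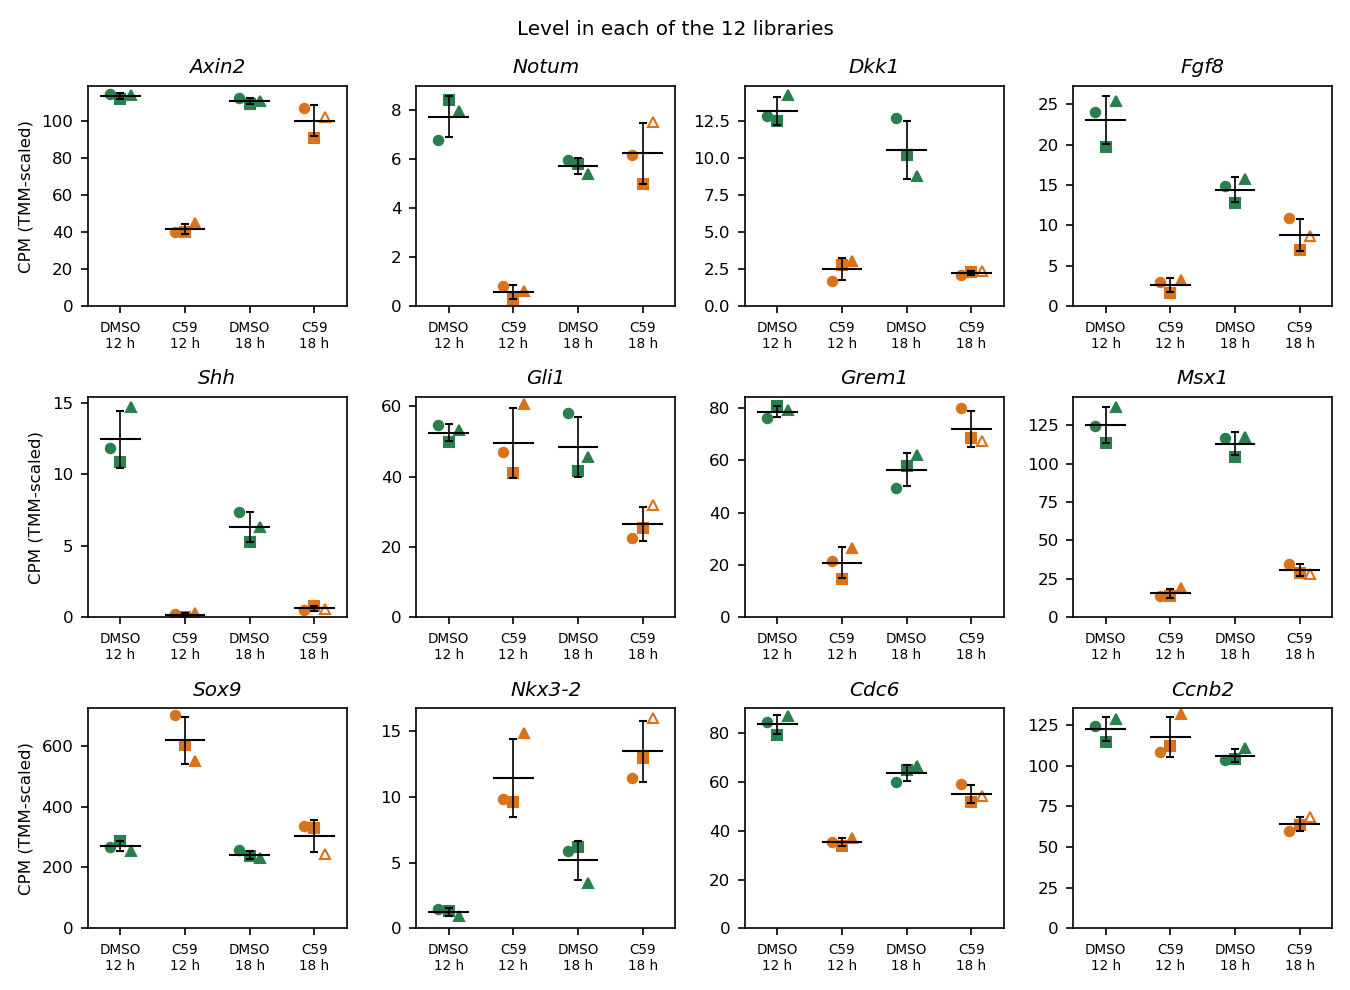
Level of 12 genes in each of the 12 libraries in CPM (linear axes from 0), with DMSO in green and C59 in orange. Circles, squares and triangles are replicates 1, 2 and 3, the open triangle is C59 18 h replicate 3, and black lines are means with SD (n = 3). *Axin2* in C59 is at 40.0, 39.8 and 44.8 CPM at 12 h and 107, 90.9 and 102 CPM at 18 h, whereas *Dkk1* in C59 is at 1.68, 2.81 and 3.06 CPM and 2.10, 2.29 and 2.39 CPM.

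Among 16 tested WNT ligand genes, none passed the edgeR test, against 8.49% of all genes, and the median difference was 0.05. The count was also 0 with DESeq2, limma voom and without replicate 3, and it was 1 with upper-quartile scaling or FPKM and 2 with all 30 libraries in the fit. At an unadjusted p below 0.05 the count was 3. Their median effect was 0.37 at 12 h and 0.38 at 18 h. As examples, *Wnt4* had effects of 0.79 and 0.86 and *Wnt3*, a ligand of the limb ectoderm, had 0.66 and 0.70. Of 22 receptor, co-receptor and R-spondin genes, 4 passed with a positive and 2 with a negative difference (4 and 3 without replicate 3, and 4 and 4 without C59 12 h replicate 3). *Fzd10*, a Frizzled receptor, was low in C59 and its difference was 1.34 ± 0.15 (1.30 without replicate 3). *Rspo3*, an R-spondin that potentiates WNT signaling, went the other way. It measured 19.1, 19.4 and 18.9 CPM in DMSO and 39.9, 43.7 and 45.8 CPM in C59 at 12 h, and 22.5, 22.5 and 21.2 CPM in DMSO and 23.3, 23.2 and 15.4 CPM in C59 at 18 h. At 18 h replicates 1 and 2 of C59 lay just above the controls and replicate 3 below them. The difference was -1.27 ± 0.18 (adjusted p = 0.00097; -1.10 without replicate 3). *Fzd5* followed the same course with -1.23 ± 0.26 (-1.08 without replicate 3), and both genes fell in C59 from 12 h to 18 h.

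Among 17 nuclear effectors and targets of the pathway, 6 passed with a positive and 2 with a negative difference, also without replicate 3. Without DMSO 12 h replicate 3 the counts were 3 and 1, and the negative count was also 1 without DMSO 12 h replicate 1, C59 12 h replicate 1 or 3 or DMSO 18 h replicate 3. The TCF/LEF factors split. *Tcf7* (effects of -1.80 and -0.75; difference 1.05 ± 0.18 (0.98 without replicate 3)) and *Lef1* (-0.97 and -0.37; 0.61 ± 0.14 (0.71 without replicate 3; lost in 1 of 12 leave-one-out fits)) were low in C59. In contrast, *Tcf7l2* (1.0 and 0.06; -0.94 ± 0.17 (-0.78 without replicate 3)) and *Tcf7l1* (0.46 and 0.04; -0.42 ± 0.10 (-0.50 without replicate 3; lost in 5 of 12 leave-one-out fits)) were high in C59 at 12 h. *Mycn*, a transcription factor that drives proliferation, changed beyond its control level. It measured 135, 121 and 148 CPM in DMSO and 58.1, 51.4 and 60.9 CPM in C59 at 12 h, and 108, 103 and 107 CPM in DMSO and 142, 129 and 137 CPM in C59 at 18 h. The C59 libraries were thus all below the controls at 12 h and all above them at 18 h, with effects of -1.25 and 0.36 (adjusted p at 18 h = 0.0114). The difference was 1.61 ± 0.12 (adjusted p = 9.3e-06; 1.60 without replicate 3). For *Ccnd1*, which encodes cyclin D1, the difference was 0.89 ± 0.10 (0.88 without replicate 3), and *Sp5*, a WNT-induced repressor, had 1.54 ± 0.38 (1.53 without replicate 3; lost in 3 of 12 leave-one-out fits) at low levels (3.92, 3.44 and 5.20 CPM in DMSO at 12 h).

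The study's own panel of WNT genes, which was picked from these libraries and is therefore not independent evidence, held 15 positive and no negative passes among 22 tested genes. Its median effect was -1.55 at 12 h and -0.51 at 18 h. In the RefSeq promoter table (GRCm38.p6; 250 bases before to 50 bases after each start), 11 of the 19 listed feedback inhibitors were matched, with 12 promoters. The TCF/LEF letters CTTTGAT or CTTTGTT, on either strand, were in 8.33% of these promoters and in 9.33% of all 32851 promoters. For the 24 promoters matched to the nuclear effectors and targets the share was also 8.33%. The *Sp5* promoter is shown because it belongs to a passing WNT target and held both forms, which are in capitals (chr2:70474673-70474972, plus strand).
Sp5: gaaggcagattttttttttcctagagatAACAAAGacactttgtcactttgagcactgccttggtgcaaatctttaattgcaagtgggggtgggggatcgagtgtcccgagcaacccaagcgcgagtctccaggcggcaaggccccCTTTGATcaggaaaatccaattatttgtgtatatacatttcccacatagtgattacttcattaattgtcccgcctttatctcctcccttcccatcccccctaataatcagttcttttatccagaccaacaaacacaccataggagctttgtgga

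Of 12 tested FGF ligands and receptors, 2 passed with a positive and 2 with a negative difference, against 4.94% and 3.55% of all genes. The median difference was -0.20 (2 and 3 passed, with a median of -0.13, without replicate 3). The positive count was 1 without DMSO 12 h replicate 1 or 3, DMSO 18 h replicate 2 or replicate 3 of C59 at 12 h. *Fgf8* (chr19:45736798-45742915, minus strand), the main FGF of the apical ectodermal ridge, measured 24.0, 19.7 and 25.4 CPM in DMSO and 2.97, 1.60 and 3.20 CPM in C59 at 12 h. At 18 h the levels were 14.8, 12.8 and 15.7 CPM in DMSO and 10.9, 6.93 and 8.75 CPM in C59, so all treated libraries remained below all controls. The effect was -3.17 at 12 h and -0.70 at 18 h, and the difference was 2.47 ± 0.30 (adjusted p = 0.00027; 2.49 without replicate 3). *Fgf4*, another ridge FGF, was close to 0 in C59 at 12 h (0.112, 0.130 and 0 CPM) and measured 1.24, 0.459 and 0.945 CPM in C59 at 18 h, with a difference of 3.52 ± 0.85 (adjusted p = 0.0211; 3.47 without replicate 3; lost in 4 of 12 leave-one-out fits).

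In a list of 14 intracellular targets and inhibitors of FGF-ERK signaling, 7 passed with a positive difference and none with a negative one (8 and none without replicate 3). The median effect was -0.56 at 12 h and -0.24 at 18 h, and the median difference was 0.38. The ETS factors *Etv4* and *Etv5* had differences of 1.2 ± 0.14 (1.11 without replicate 3) and 1.08 ± 0.16 (1.03 without replicate 3). The phosphatases *Dusp4* and *Dusp6*, which act on MAP kinases, had 1.13 ± 0.15 (1.08 without replicate 3) and 0.79 ± 0.13 (0.76 without replicate 3), and the inhibitors *Spry4*, *Spry1* and *Spred2* had 1.11 ± 0.13 (1.13 without replicate 3), 0.68 ± 0.14 (0.59 without replicate 3) and 0.44 ± 0.12 (0.48 without replicate 3; lost in 9 of 12 leave-one-out fits). *Etv4* kept an effect of -0.98 at 18 h, whereas *Dusp4* was at 0.07. No gene of the list passed in DMSO over time, and 8 rose in C59 (3.05% and 12.8% of all genes changed).

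The negative differences of the FGF genes were at receptors. *Fgfr4* measured 10.9, 10.7 and 8.19 CPM in DMSO and 17.3, 15.2 and 11.2 CPM in C59 at 12 h, and 23.8, 18.8 and 18.3 CPM in DMSO and 9.07, 10.3 and 11.7 CPM in C59 at 18 h. Its C59 libraries were above the controls at 12 h and below them at 18 h, and the control level rose by 1.02 on the log2 scale. The difference was -1.51 ± 0.24 (adjusted p = 0.00194; -1.60 without replicate 3). *Fgfr3*, which is also a cartilage gene, had a difference of -0.95 ± 0.21 (-0.93 without replicate 3), with a rise of 0.68 in DMSO.

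*Shh* and the genes that respond to it did not move together. *Shh* measured 11.9, 10.8 and 14.7 CPM in DMSO and 0.224, 0.0433 and 0.283 CPM in C59 at 12 h, and 7.39, 5.25 and 6.34 CPM in DMSO and 0.525, 0.815 and 0.547 CPM in C59 at 18 h. The difference was 2.78 ± 0.52 (adjusted p = 0.00517; 2.87 without replicate 3), and the gene was still -3.31 below control on the log2 scale at 18 h. *Gli1*, a transcription factor induced by hedgehog signaling, measured 54.7, 49.8 and 53.1 CPM in DMSO and 47.0, 41.2 and 60.7 CPM in C59 at 12 h, where the groups overlapped. The 18 h levels were 58.1, 41.5 and 45.7 CPM in DMSO and 22.5, 25.4 and 31.9 CPM in C59, where they did not. Its effect was -0.08 at 12 h and -0.86 at 18 h, and the difference was -0.78 ± 0.22 (adjusted p = 0.0445; -0.92 without replicate 3; lost in 9 of 12 leave-one-out fits). Over 23 alternative analyses its difference ran from -0.92 to -0.46 and the adjusted p from 0.00135 to 0.291.

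The other general readouts of the pathway followed *Gli1*. *Hhip*, a decoy receptor for hedgehog proteins, had effects of 0.11 and -1.15 (difference -1.26 ± 0.28 (adjusted p = 0.0141; -1.11 without replicate 3)), and *Ptch1*, the hedgehog receptor, had 0.06 and -0.51 (difference -0.57 ± 0.15 (adjusted p = 0.0303; -0.52 without replicate 3; lost in 7 of 12 leave-one-out fits)). Both fell in C59, by 1.18 and 0.64 on the log2 scale, and did not pass in DMSO. *Gas1*, a co-receptor, moved the other way with 0.32 ± 0.09 (0.31 without replicate 3; lost in 9 of 12 leave-one-out fits). In the whole list of 14 hedgehog genes, with or without replicate 3, 2 passed with a positive and 3 with a negative difference. Over all genes the shares were 4.94% and 3.55%. The counts were 1 and 1 without DMSO 12 h replicate 1, 2 or 3, DMSO 18 h replicate 3 or replicate 3 of C59 at 12 h, and 1 and 2 without C59 12 h replicate 1, DMSO 18 h replicate 1 or 2 or C59 18 h replicate 2. *Hoxd12*, a 5′ Hox gene of the posterior and distal bud, had effects of -0.15 at 12 h and -0.67 at 18 h, and its difference was -0.52 ± 0.14 (-0.51 without replicate 3; lost in 10 of 12 leave-one-out fits).

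*Grem1* (chr2:113746164-113758646, minus strand), the BMP antagonist that links the SHH and FGF domains, measured 76.1, 80.6 and 79.0 CPM in DMSO and 21.6, 14.6 and 26.6 CPM in C59 at 12 h. At 18 h it measured 49.5, 57.7 and 62.0 CPM in DMSO and 79.8, 68.6 and 67.5 CPM in C59. The treated libraries were far below the controls at 12 h and above all of them at 18 h, although the 18 h effect of 0.35 did not pass (adjusted p = 0.132). The difference was 2.26 ± 0.22 (adjusted p = 5.1e-05; 2.31 without replicate 3). The ligands *Bmp4* and *Bmp7* had positive differences of 0.97 ± 0.14 (0.93 without replicate 3) and 0.81 ± 0.11 (0.75 without replicate 3), and rose in C59 while they did not pass in DMSO.

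*Msx1*, a homeobox target of BMP signaling, rose but remained low. It measured 124, 114 and 137 CPM in DMSO and 14.1, 13.7 and 19.0 CPM in C59 at 12 h, and 117, 104 and 117 CPM in DMSO and 34.9, 28.9 and 28.0 CPM in C59 at 18 h. The treated libraries were far below every control at both times. The effect was -3.00 at 12 h and -1.88 at 18 h, and the difference was 1.12 ± 0.17 (adjusted p = 0.00168; 1.18 without replicate 3). Other components passed in the negative direction: *Nog*, a BMP antagonist of cartilage, with -1.55 ± 0.32 (-1.41 without replicate 3), the receptor *Bmpr1b* with -1.09 ± 0.19 (-0.93 without replicate 3) and the secreted modulator *Bmper* with -0.95 ± 0.21 (-0.89 without replicate 3). In the controls, *Nog* rose by 1.31 and *Bmper* by 0.89, while *Bmpr1b* fell in C59 by 0.57. The BMP target *Id3* had -0.41 ± 0.10 (-0.48 without replicate 3; lost in 7 of 12 leave-one-out fits). In all, 4 of 26 BMP pathway genes passed in each direction (4 positive and 7 negative without replicate 3). Over all genes, 4.94% passed with a positive and 3.55% with a negative difference.

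Transcription factors of the distal and axial bud split into genes whose effect had shrunk and genes whose effect had not. Of 30 tested, 4 passed with a positive and 2 with a negative difference (7 and 2 without replicate 3), against 4.94% and 3.55% of all genes. The median effect was -0.48 at 12 h and -0.47 at 18 h. The counts were 2 and 1 without DMSO 12 h replicate 1, DMSO 18 h replicate 2 or 3 or replicate 3 of C59 at 12 h. The negative count was also 1 without DMSO 12 h replicate 2 or 3, C59 12 h replicate 2, DMSO 18 h replicate 1 or C59 18 h replicate 1. *Twist1*, a mesenchymal factor, measured 421, 425 and 454 CPM in DMSO and 196, 181 and 195 CPM in C59 at 12 h. Its levels at 18 h were 351, 345 and 332 CPM in DMSO and 362, 328 and 372 CPM in C59, and the groups overlapped. The difference was 1.23 ± 0.10 (adjusted p = 9.5e-06; 1.2 without replicate 3). *Irx3* (0.91 ± 0.21 (0.95 without replicate 3)), *Irx5* (0.66 ± 0.17 (0.71 without replicate 3; lost in 6 of 12 leave-one-out fits)) and *Prrx2* (0.43 ± 0.11 (0.37 without replicate 3; lost in 7 of 12 leave-one-out fits)) also passed.

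*Lhx2*, a factor of the distal mesenchyme, had effects of -1.13 and -1.07 with a difference of 0.06 ± 0.18 (0.01 without replicate 3), and *Tfap2c* had -1.55 and -1.28 with 0.27 ± 0.31 (0.19 without replicate 3). Neither difference passed. *Pax9*, a gene of the anterior bud, had overlapping levels in both arms at 12 h (4.59, 5.47 and 5.85 CPM in DMSO and 5.88, 5.85 and 4.38 CPM in C59). The 18 h levels were 12.0, 11 and 10.8 CPM in DMSO and 3.87, 4.48 and 4.97 CPM in C59, and no C59 library reached a control. The difference was -1.36 ± 0.22 (adjusted p = 0.00217; -1.45 without replicate 3), with a rise of 1.09 in DMSO.

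Of 16 genes of proximal identity and retinoic acid, 1 passed with a positive and 2 with a negative difference, against 4.94% and 3.55% of all genes. Without replicate 3 the total was the same, the negative count was 1 without DMSO 12 h replicate 1 or 3, C59 12 h replicate 3, DMSO 18 h replicate 1 or C59 18 h replicate 2, and the positive count was 2 without C59 12 h replicate 1. *Aldh1a2*, which makes retinoic acid, rose in DMSO by 1.23 and its difference was -1.30 ± 0.29 (-1.34 without replicate 3). Among the enzymes that degrade retinoic acid, *Cyp26b1* had a positive difference (0.54 ± 0.12 (0.47 without replicate 3)) and *Cyp26a1* a negative one (-1.07 ± 0.27 (-1.25 without replicate 3; lost in 5 of 12 leave-one-out fits)).

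**Figure D3:**
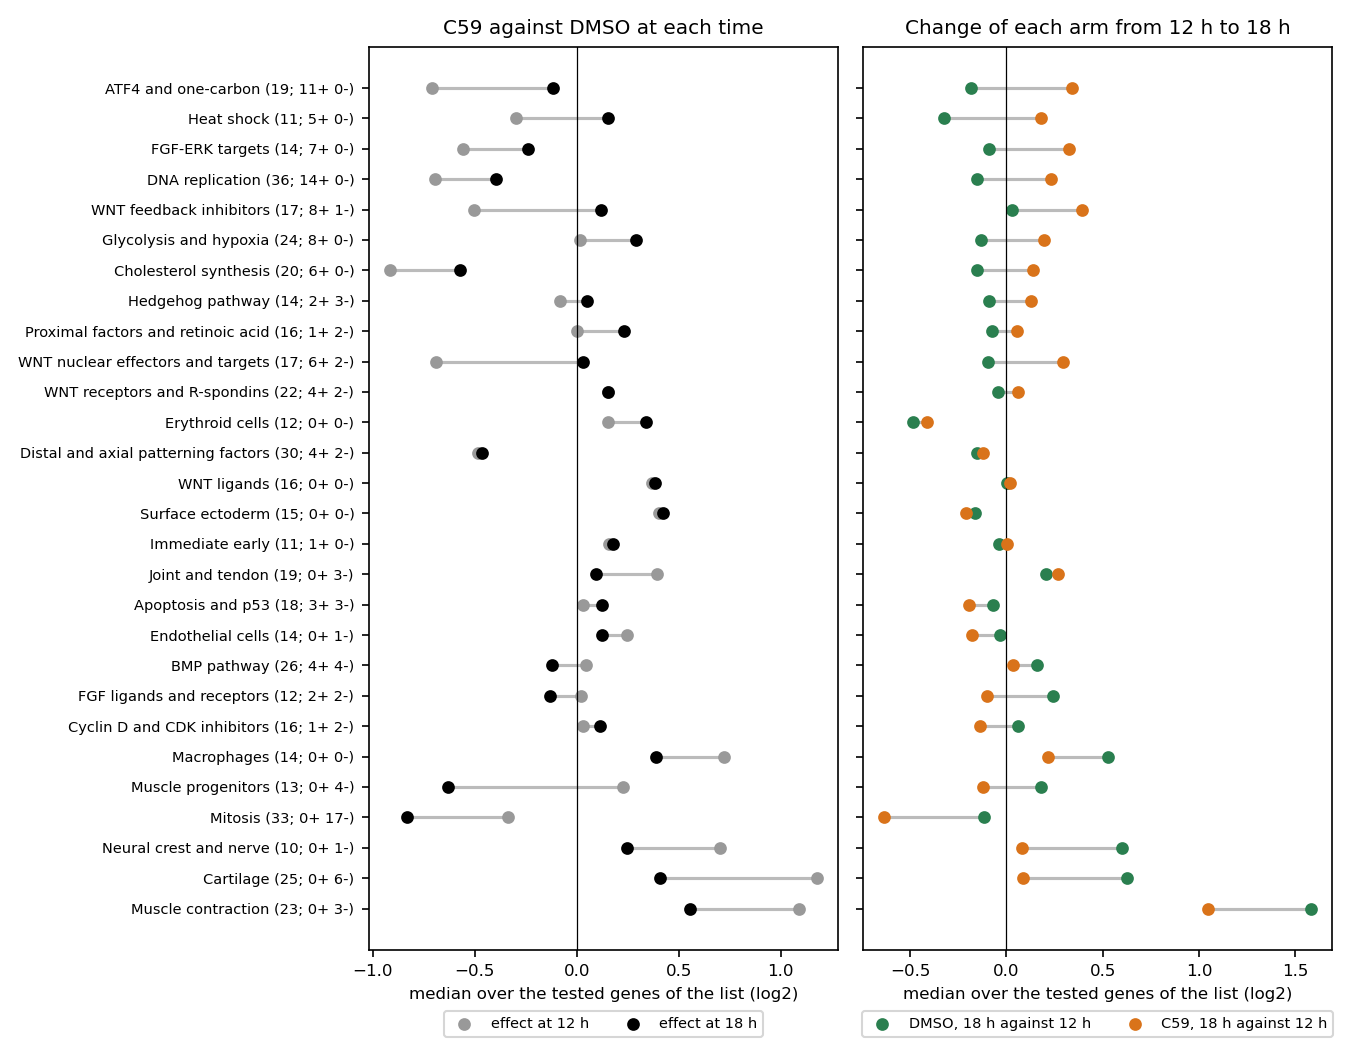
Medians over the tested genes of 28 gene lists. The left panel shows the effect of C59 (log2) at 12 h (grey) and at 18 h (black), and the right panel the change from 12 h to 18 h (log2) in DMSO (green) and in C59 (orange), with the number of genes tested and passing in the positive (+) and negative (-) direction beside each list. Feedback inhibitors of WNT signaling move from -0.50 to 0.12 and mitotic genes from -0.34 to -0.83.

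The cartilage genes that passed had negative differences, and the median change over time was larger in the controls than in C59. Of 25 tested, 6 passed with a negative difference and none with a positive one (7 and none without replicate 3), and the median effect was 1.18 at 12 h and 0.41 at 18 h. The median difference was -0.67 (-0.51 without replicate 3 and -0.35 without C59 12 h replicate 1). The list rose in DMSO by a median of 0.62 and in C59 by 0.08, and 10 of its genes rose and 1 fell in DMSO, against none and 3 in C59. The summed level of the list was 2290 to 2410 CPM in DMSO and 3670 to 4890 CPM in C59 at 12 h, and 2660 to 3050 CPM and 3980 to 4290 CPM at 18 h. In these whole limb buds, fewer cells of a type and less RNA per cell cannot be told apart.

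*Nkx3-2*, a factor of early cartilage, measured 1.48, 1.35 and 0.936 CPM in DMSO and 9.81, 9.61 and 14.9 CPM in C59 at 12 h, and 5.86, 6.19 and 3.47 CPM in DMSO and 11.5, 13 and 16.0 CPM in C59 at 18 h. The treated level did not pass over time (0.24), and the controls rose by 2.05 on the log2 scale without reaching it. The difference was -1.81 ± 0.37 (adjusted p = 0.0078; -1.95 without replicate 3). *Sulf1*, a sulfatase of the cell surface, and *Col9a3*, a cartilage collagen, also rose in DMSO (by 0.91 and 1.25), with differences of -1.24 ± 0.18 (-1.22 without replicate 3) and -0.96 ± 0.27 (-0.98 without replicate 3; lost in 8 of 12 leave-one-out fits).

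*Sox9* (chr11:112782224-112787760, plus strand), the factor that initiates the cartilage program, differed from its list. It measured 269, 289 and 254 CPM in DMSO and 701, 602 and 551 CPM in C59 at 12 h, and 257, 238 and 232 CPM in DMSO and 337, 330 and 244 CPM in C59 at 18 h. Its C59 libraries, at least 551 CPM at 12 h, were at most 337 CPM at 18 h, and replicate 3 lay among the controls. The difference was -0.87 ± 0.16 (adjusted p = 0.0053; -0.73 without replicate 3), made by a fall of 1.02 in C59 while the DMSO level did not pass (-0.16). *Runx3*, a runt factor at low level, was the only cartilage gene called lower at 18 h (effects of -0.16 and -1.43; difference -1.27 ± 0.33 (adjusted p = 0.0311; -1.32 without replicate 3; lost in 8 of 12 leave-one-out fits)), and its difference passed in 12 of 23 alternative analyses. The study's chondrogenesis panel, again picked from these libraries and not independent evidence, had 6 negative passes among 13 genes and a median effect of 1.33 at 12 h and 0.68 at 18 h.

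Of 19 joint and tendon genes, 3 passed, all with negative differences and also without replicate 3, against 3.55% negative over all genes. The count was 3 without DMSO 12 h replicate 2, 2 without C59 12 h replicate 1 or C59 18 h replicate 1, and 1 without any of the other libraries. *Lum*, which encodes the matrix proteoglycan lumican, measured 27.3, 32.2 and 25.4 CPM in DMSO and 20.1, 23.5 and 29.6 CPM in C59 at 12 h. At 18 h it measured 65.5, 67.8 and 66.4 CPM in DMSO and 25.4, 31.8 and 21.6 CPM in C59. The groups overlapped at 12 h, and at 18 h every treated library was below every control, which had risen by 1.24 on the log2 scale. The difference was -1.13 ± 0.21 (adjusted p = 0.00468; -1.01 without replicate 3). *Kera*, a related proteoglycan, was low in C59 at both times and more so at 18 h, with effects of -1.83 and -3.13 and a difference of -1.30 ± 0.35 (adjusted p = 0.0346; -1.26 without replicate 3; lost in 8 of 12 leave-one-out fits). The third gene was *Erg*, a factor of joints and of endothelium, with -0.40 ± 0.11 (-0.41 without replicate 3; lost in 11 of 12 leave-one-out fits).

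A minority of muscle genes passed, with negative differences, against 3.55% of all genes in that direction. Of 13 muscle progenitor genes, 4 passed, with or without replicate 3, and 1 passed without DMSO 12 h replicate 1 or 3, C59 12 h replicate 1 or 2 or DMSO 18 h replicate 3. A total of 2 passed without DMSO 18 h replicate 1 or 2 or C59 18 h replicate 1 or 2, and without DMSO 12 h replicate 2 there were 5 negative passes and 1 positive. *Msc*, a bHLH repressor of muscle progenitors, measured 6.42, 8.24 and 8.01 CPM in DMSO and 13, 11.6 and 10.6 CPM in C59 at 12 h, and 14.3, 15.1 and 12.8 CPM in DMSO and 6.92, 6.57 and 9.20 CPM in C59 at 18 h. The treated libraries were all above the controls at 12 h and all below them at 18 h. The difference was -1.53 ± 0.21 (adjusted p = 0.0007; -1.70 without replicate 3). The myogenic factors *Myog* and *Myod1* rose in DMSO by 1.42 and 0.91 and had differences of -1.21 ± 0.32 (-1.37 without replicate 3; lost in 9 of 12 leave-one-out fits) and -0.91 ± 0.22 (-1.02 without replicate 3; lost in 5 of 12 leave-one-out fits). The fourth gene, *Cdh15* (M-cadherin), had -0.89 ± 0.26 (-1.19 without replicate 3; lost in 10 of 12 leave-one-out fits).

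Markers of migrating progenitors and the myogenic factor *Myf5* were low at both times without a passing difference. The effects at 12 h and 18 h were -1.14 and -1.60 for *Lbx1*, -2.04 and -1.31 for *Pax3*, -0.93 and -1.06 for *Met*, and -0.99 and -1.12 for *Myf5*. Of 23 genes of muscle contraction, 3 passed with a negative difference (5 without replicate 3), against 3.55% of all genes. Over time, 11 rose in DMSO and 8 in C59, where 3.05% and 12.8% of all genes changed. The summed level of the list was 71.1 to 197 CPM in DMSO and 242 to 329 CPM in C59 at 12 h, and 298 to 377 CPM and 422 to 656 CPM at 18 h. Single libraries decided the result of this list. Without DMSO 12 h replicate 2, which had the highest sum in its group, 10 genes passed and the median difference went from -0.80 to -1.61. None passed without DMSO 12 h replicate 1, DMSO 12 h replicate 3 or C59 12 h replicate 2, with medians of -0.34, -0.36 and -0.38. Without DMSO 18 h replicate 2 or 3 a single gene passed, with medians of -0.44 and -0.90, and without C59 18 h replicate 1 the median was -0.50.

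**Figure D4:**
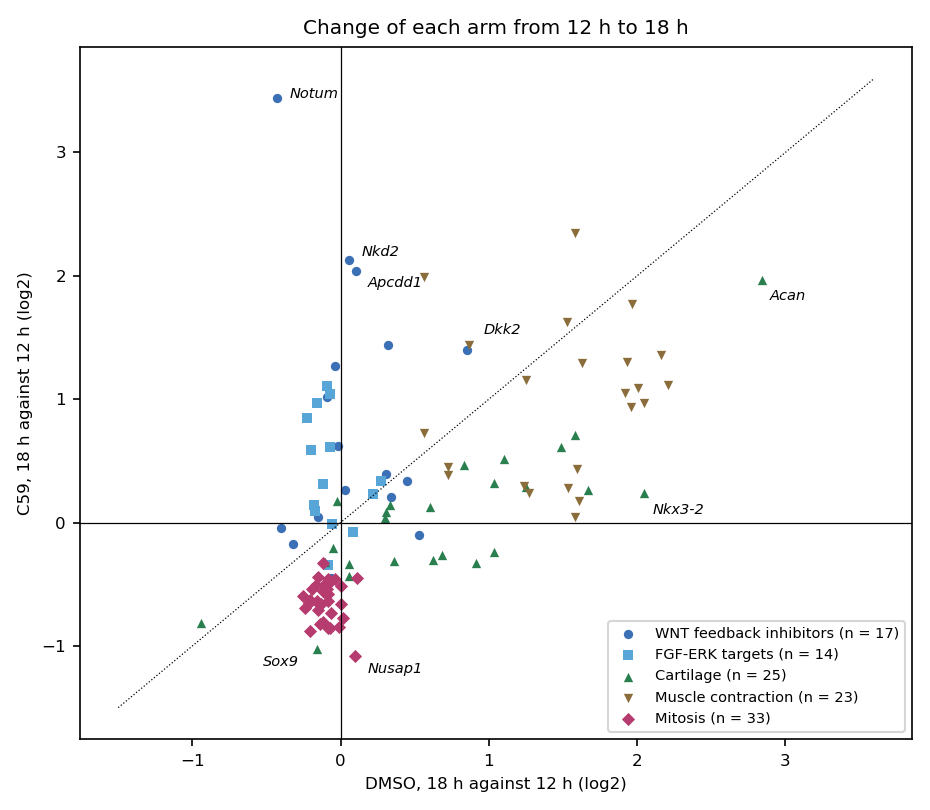
Change from 12 h to 18 h in DMSO (horizontal) and in C59 (vertical), both in log2, 1 point for each tested gene of 5 lists, with the dotted line marking equal changes. WNT feedback and FGF-ERK genes spread upwards near 0 in DMSO, and mitotic genes lie below 0 in C59 and near 0 in DMSO. Cartilage genes spread to the right (medians of 0.62 in DMSO and 0.08 in C59). Muscle contraction genes spread to the right and upwards (1.58 and 1.05).

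Cell cycle genes separated by phase. Of 36 genes of DNA replication, 14 passed with a positive difference and none with a negative one (19 and none without replicate 3). The median effect was -0.70 at 12 h and -0.40 at 18 h, and the effect was smaller in size at 18 h for 34 of the 36 genes. Of 33 mitotic genes, 17 passed with a negative difference and none with a positive one (21 and none without replicate 3). Their median effect was -0.34 at 12 h and -0.83 at 18 h, and the effect was smaller at 18 h for none of the 33. Of the mitotic genes, 29 fell in C59, with a median change of -0.63. None passed in DMSO over time, where the median change was also negative (-0.12). Their summed level was 5980 to 6230 CPM in DMSO and 4480 to 5270 CPM in C59 at 12 h, and 5320 to 5920 CPM and 2710 to 3660 CPM at 18 h.

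*Cdc6*, which loads the replicative helicase, measured 84.4, 79.4 and 87.2 CPM in DMSO and 35.4, 33.9 and 37.1 CPM in C59 at 12 h, and 60.0, 64.9 and 66.4 CPM in DMSO and 59.2, 52.0 and 54.5 CPM in C59 at 18 h. The treated libraries were all below the controls at both times, with a gap that had nearly closed at 18 h. The difference was 1.03 ± 0.11 (adjusted p = 9.7e-05; 1.04 without replicate 3), made of a fall of 0.39 in DMSO and a rise of 0.64 in C59. *Ccne1*, the cyclin of entry into S phase, had effects of -1.08 and -0.03 and a difference of 1.06 ± 0.12 (adjusted p = 0.00015; 1.0 without replicate 3). The helicase genes *Mcm2*, *Mcm3*, *Mcm4*, *Mcm6* and *Mcm7* passed with differences from 0.44 (*Mcm6*) to 0.61 (*Mcm2*), of which *Mcm7* was lost in 8 of 12 leave-one-out fits, and *E2f1*, a factor that drives S phase genes, with 0.76 ± 0.15 (0.68 without replicate 3). *Rrm2*, the small subunit of ribonucleotide reductase, kept an effect of -0.74 at 18 h, and its difference of 0.34 ± 0.12 (adjusted p = 0.108; 0.42 without replicate 3, adjusted p = 0.00895) did not pass.

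*Ccnb2*, a mitotic cyclin, measured 124, 115 and 129 CPM in DMSO and 109, 112 and 132 CPM in C59 at 12 h, where the groups overlapped. Its levels at 18 h were 104, 104 and 111 CPM in DMSO and 59.9, 63.7 and 68.4 CPM in C59, and every treated library was below every control. The difference was -0.67 ± 0.12 (adjusted p = 0.00379; -0.72 without replicate 3). *Nusap1*, which encodes a protein of the mitotic spindle, had the largest difference of the list, -1.18 ± 0.24 (adjusted p = 0.00889; -0.93 without replicate 3), and replicate 3 was its lowest library (77.6, 73.1 and 39.4 CPM in C59 at 18 h). The centromere histone *Cenpa* had -0.68 ± 0.11 (-0.67 without replicate 3), the spindle factor *Tpx2* -0.68 ± 0.14 (-0.56 without replicate 3), the ubiquitin-conjugating enzyme *Ube2c* -0.53 ± 0.10 (-0.52 without replicate 3), *Ccnb1* -0.50 ± 0.10 (-0.48 without replicate 3) and the kinases *Plk1* and *Aurka* -0.45 ± 0.13 (-0.50 without replicate 3; lost in 9 of 12 leave-one-out fits) and -0.35 ± 0.10 (-0.37 without replicate 3; lost in 11 of 12 leave-one-out fits). *Cdc25c*, the phosphatase that activates the mitotic kinase, had an effect of -1.08 at 18 h and a difference of -0.79 ± 0.16 (-0.68 without replicate 3).

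**Figure D5:**
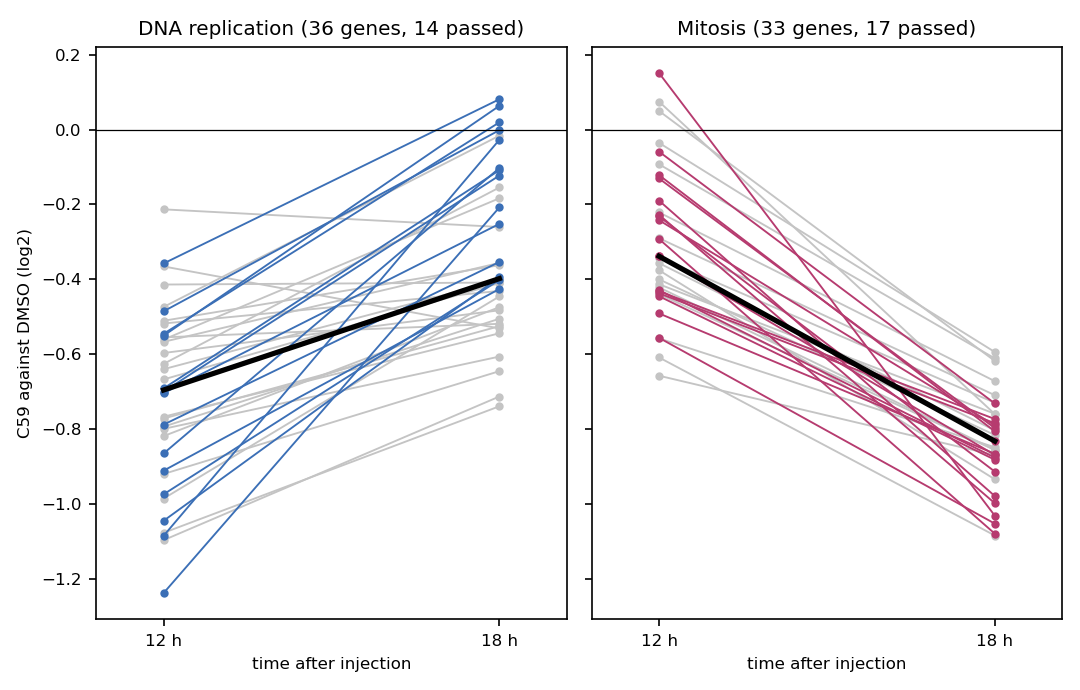
Effect of C59 (log2) at 12 h and at 18 h for each tested gene of DNA replication (left, 36 genes) and of mitosis (right, 33 genes), with thin coloured lines for genes whose difference passed, grey lines for the others and a thick black line for the median. The median moves from -0.70 to -0.40 on the left and from -0.34 to -0.83 on the right.

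The promoters of the lists differed in the letters they held. RefSeq promoters were matched for 26 of the 36 replication genes and 27 of the 33 mitotic genes, with 29 promoters in each set. The E2F letters TTTCCCGC, TTTGGCGC or TTTCGCGC, on either strand, were in 44.8% of the replication promoters, 3.45% of the mitotic promoters and 1.84% of all 32851 promoters. The letters CCAAT (the CCAAT box) together with TTTGAA (the core of the cell cycle homology region), on either strand, were in 69.0% of the mitotic promoters, 13.8% of the replication promoters and 6.95% of all promoters. CCAAT, with or without TTTGAA, was in 82.8%, 69.0% and 37.4% of the mitotic, replication and all promoters. TTTGAA, with or without CCAAT, was in 79.3%, 13.8% and 17.9%. These matches describe the sequence and do not show binding. The promoters of *Mcm3* (chr1:20820263-20820562, minus strand) and *Cdc6* (chr11:98907901-98908200, plus strand) are shown because both genes passed with positive differences, with E2F letters in capitals. The promoters of *Ccnb2* (chr9:70421505-70421804, minus strand) and *Cenpa* (chr5:30666636-30666935, plus strand), 2 mitotic genes with negative differences, follow with CCAAT and TTTGAA or their reverse complements in capitals.
Mcm3: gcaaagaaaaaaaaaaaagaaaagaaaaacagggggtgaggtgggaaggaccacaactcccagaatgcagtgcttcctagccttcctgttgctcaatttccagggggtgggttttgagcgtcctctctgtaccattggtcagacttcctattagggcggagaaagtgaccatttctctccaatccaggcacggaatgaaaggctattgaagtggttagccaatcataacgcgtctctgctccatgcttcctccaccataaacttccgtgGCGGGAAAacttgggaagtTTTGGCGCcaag
Cdc6: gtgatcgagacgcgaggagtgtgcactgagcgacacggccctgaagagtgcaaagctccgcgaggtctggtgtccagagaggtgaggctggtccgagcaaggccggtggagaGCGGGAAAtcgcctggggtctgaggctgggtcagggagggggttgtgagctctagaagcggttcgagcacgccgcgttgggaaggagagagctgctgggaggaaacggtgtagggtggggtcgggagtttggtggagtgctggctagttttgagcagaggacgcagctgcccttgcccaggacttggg
Ccnb2: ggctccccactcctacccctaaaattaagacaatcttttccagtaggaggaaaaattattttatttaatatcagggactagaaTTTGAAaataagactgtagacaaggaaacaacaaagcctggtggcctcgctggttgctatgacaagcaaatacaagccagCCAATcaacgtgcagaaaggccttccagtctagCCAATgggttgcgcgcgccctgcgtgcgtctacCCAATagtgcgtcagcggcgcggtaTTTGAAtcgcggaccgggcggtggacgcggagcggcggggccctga
Cenpa: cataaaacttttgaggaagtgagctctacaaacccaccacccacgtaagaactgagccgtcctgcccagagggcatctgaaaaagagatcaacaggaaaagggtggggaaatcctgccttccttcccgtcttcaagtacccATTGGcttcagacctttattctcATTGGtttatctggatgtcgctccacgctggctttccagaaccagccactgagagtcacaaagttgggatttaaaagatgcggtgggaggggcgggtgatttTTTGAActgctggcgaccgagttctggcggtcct

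Regulators of cell cycle entry were mixed. Of 16 genes of cyclin D and CDK inhibitors, *Ccnd1* alone passed with a positive and 2 with a negative difference. Over all genes the shares were 4.94% and 3.55%. *Cdkn1b*, the CDK inhibitor p27, was high in C59 at 12 h (0.57) and had a difference of -0.74 ± 0.20 (-0.54 without replicate 3; lost in 9 of 12 leave-one-out fits), and *Rb1*, the retinoblastoma gene, had -1.0 ± 0.19 (-0.86 without replicate 3) with effects of 0.44 and -0.56. Without replicate 3, 2 genes passed with a positive and 4 with a negative difference. The negative count was 4 without C59 18 h replicate 2, and 1 without any single library of C59 at 12 h or of DMSO at either time.

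Several metabolic genes low in C59 at 12 h were less so at 18 h. Of 19 genes of the ATF4 response and one-carbon metabolism, 11 passed with a positive difference and none with a negative one (11 and 1 without replicate 3), and the median effect was -0.71 at 12 h and -0.12 at 18 h. *Mthfd2* and *Shmt1*, enzymes that use folate, had differences of 1.18 ± 0.12 (1.12 without replicate 3) and 1.17 ± 0.12 (1.14 without replicate 3). *Phgdh*, the first enzyme of serine synthesis, had 0.90 ± 0.15 (0.75 without replicate 3), and the amino acid transporter *Slc7a5* had 0.84 ± 0.13 (0.73 without replicate 3). *Slc7a11*, the cystine transporter, kept an effect of -1.11 at 18 h and did not pass (0.51 ± 0.24 (adjusted p = 0.227; 0.64 without replicate 3)).

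The glycolysis list did not start from a common loss. Its median effect was 0.02 at 12 h and 0.29 at 18 h, and 8 of 24 genes passed with a positive difference and none with a negative one (10 and 1 without replicate 3, and 5 and none with upper-quartile scaling). A total of 3 passed without DMSO 12 h replicate 1 or 3, DMSO 18 h replicate 2 or replicate 3 of C59 at 12 h, and 4 without DMSO 18 h replicate 3 or replicate 2 of C59 at 12 h. *Hk2*, the hexokinase that starts glucose use, measured 73.0, 79.9 and 73.7 CPM in DMSO and 38.9, 39.6 and 35.6 CPM in C59 at 12 h, and 52.2, 63.3 and 58.7 CPM in DMSO and 85.0, 76.4 and 86.2 CPM in C59 at 18 h. The treated libraries were all below the controls at 12 h and all above them at 18 h. The difference was 1.5 ± 0.12 (adjusted p = 1.2e-05; 1.46 without replicate 3). *Ldha*, lactate dehydrogenase A, had 0.83 ± 0.15 (0.76 without replicate 3). Cholesterol synthesis genes remained low: the median effect of 20 genes was -0.91 at 12 h and -0.57 at 18 h, all 20 were below 0 at both times, and 6 passed with a positive difference (8 without replicate 3). *Insig1*, a sterol sensor, kept an effect of -0.98 and *Idi1*, an isoprenoid isomerase, of -1.09 at 18 h, with differences of 0.75 ± 0.14 (0.73 without replicate 3) and 0.34 ± 0.19 (0.48 without replicate 3), of which the latter did not pass.

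Of 11 heat shock genes, 5 passed with a positive difference (6 without replicate 3) and none with a negative one. *Hspa8*, the constitutive HSP70 chaperone, fell in DMSO by 0.53 and rose in C59 by 0.58 on the log2 scale, and the effect went from -0.71 to 0.40. Its difference was 1.11 ± 0.09 (adjusted p = 1.3e-05; 1.07 without replicate 3). *Hsph1*, its exchange factor, had 1.10 ± 0.12 (1.19 without replicate 3), and it rose in C59 and fell in DMSO as well. In the list of apoptosis and p53 genes, 3 of 18 passed in each direction (3 positive and 5 negative without replicate 3). Over all genes the shares were 4.94% positive and 3.55% negative. *Pmaip1* (Noxa), a pro-apoptotic BH3-only gene, measured 142, 132 and 152 CPM in DMSO and 126, 132 and 162 CPM in C59 at 12 h, where the groups overlapped. The 18 h levels were 110, 90.3 and 117 CPM in DMSO and 52.0, 40.8 and 31.2 CPM in C59, where all treated libraries were lower. The difference was -1.33 ± 0.22 (adjusted p = 0.00214; -1.16 without replicate 3). *Bmf*, another BH3-only gene, was high in C59 (1.41 and 0.57) with a difference of -0.84 ± 0.09 (-0.83 without replicate 3). *Bok*, a BAX relative, and *Bid*, a BH3-only gene, had positive differences of 1.41 ± 0.24 (1.24 without replicate 3) and 0.92 ± 0.17 (0.94 without replicate 3).

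Beyond the lists, the genes with the largest differences were taken among passing genes with a mean of at least 1 CPM in every group, of which there were 1083. On the positive side these included *Igf1*, the insulin-like growth factor. It measured 84.1, 82.5 and 89.3 CPM in DMSO and 35.0, 36.3 and 40.1 CPM in C59 at 12 h, and 63.5, 80.2 and 74.3 CPM in DMSO and 165, 129 and 75.6 CPM in C59 at 18 h. At 18 h replicates 1 and 2 were far above the controls, and replicate 3 lay within their range. The difference was 1.96 ± 0.28 (adjusted p = 0.00088; 2.21 without replicate 3). *Tmem132c*, a membrane protein, had 1.97 ± 0.13 (1.88 without replicate 3), *Alpl*, tissue-nonspecific alkaline phosphatase, 2.10 ± 0.32 (1.98 without replicate 3), *Gria2*, a glutamate receptor subunit, 2.0 ± 0.30 (2.18 without replicate 3), *Ak5*, an adenylate kinase, 1.89 ± 0.34 (1.91 without replicate 3), and the uncharacterized *Gm14226* 2.67 ± 0.28 (2.87 without replicate 3). *Lyrm7*, a factor of mitochondrial complex III assembly, had 2.61 ± 0.69 (3.06 without replicate 3; lost in 7 of 12 leave-one-out fits), but passed in only 13 of 23 alternative analyses.

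On the negative side, *Stk32a*, a serine/threonine kinase, measured 1.07, 2.14 and 1.23 CPM in DMSO and 13.5, 15.2 and 19.9 CPM in C59 at 12 h, and 2.41, 1.77 and 2.49 CPM in DMSO and 2.24, 2.5 and 1.84 CPM in C59 at 18 h. Its treated libraries were all high at 12 h and overlapped the controls at 18 h. The difference was -3.44 ± 0.36 (adjusted p = 9e-05; -3.32 without replicate 3). *Lrrn3*, a leucine-rich repeat membrane protein, went from an effect of 3.30 to 0.07, with a rise of 1.53 in DMSO and a fall of 1.70 in C59. Its difference was -3.23 ± 0.31 (adjusted p = 4.5e-05; -3.09 without replicate 3). *Vgll2*, a cofactor of TEAD proteins in muscle, had -2.19 ± 0.36 (-2.56 without replicate 3), *Ogn*, a small proteoglycan, -2.0 ± 0.36 (-1.82 without replicate 3), *Podn*, a matrix protein, -2.11 ± 0.47 (-2.37 without replicate 3), *Rgs8*, a regulator of G protein signaling, -2.09 ± 0.29 (-2.25 without replicate 3), *Cyp4f16*, a cytochrome P450, -2.13 ± 0.29 (-2.04 without replicate 3) and *Mfap3l* -1.92 ± 0.32 (-1.78 without replicate 3).

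A pair of genes was called at both times in opposite directions with a mean of at least 1 CPM in every group. *Inhba*, the activin βA subunit, measured 2.55, 3.44 and 2.40 CPM in DMSO and 8.58, 9.79 and 9.56 CPM in C59 at 12 h, and 11.1, 13.9 and 11.1 CPM in DMSO and 5.59, 7.64 and 4.43 CPM in C59 at 18 h. The controls rose past the treated libraries, which lay above all controls at 12 h and below all of them at 18 h. The effect was 1.74 at 12 h and -1.04 at 18 h, and the difference was -2.78 ± 0.28 (adjusted p = 6.1e-05; -2.61 without replicate 3). *Cbln4*, a secreted cerebellin, had effects of 1.71 and -1.01, with a rise of 1.32 in DMSO and a fall of 1.40 in C59, and its difference was -2.72 ± 0.30 (adjusted p = 0.00015; -2.73 without replicate 3).

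Some of the largest differences were at genes with near-identical copies or variable alleles, where the counting could assign reads to either locus, and they are uncertain. *Tpm3-rs7* measured 69.7, 267 and 134 CPM in DMSO and 140, 138 and 135 CPM in C59 at 12 h. At 18 h it measured 184, 171 and 182 CPM in DMSO and 3.82, 2.09 and 1.59 CPM in C59, for a difference of -5.96 ± 0.55 (adjusted p = 2.6e-05; -5.72 without replicate 3). *Rpl26*, a ribosomal protein gene, measured 26.3, 27.6 and 34.1 CPM in DMSO and 311, 168 and 229 CPM in C59 at 18 h, for a difference of 3.17 ± 0.24 (adjusted p = 9.3e-06; 3.19 without replicate 3). The MHC class I genes *H2-D1* (1.69 ± 0.24 (1.48 without replicate 3)) and *H2-T22* (-2.63 ± 0.58 (-2.59 without replicate 3)) moved in opposite directions. *Csnk2a3*, a casein kinase retrogene, was low at both times (-1.23 and -1.67).

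Genes called at both times in the same direction were ranked where their mean was at least 1 CPM in every group. Those with the largest effects at 18 h included *Dkk1*, *Msx1*, *Lbx1* and *Csnk2a3*, given above. *Isl1*, a LIM homeobox gene, had effects of -1.38 and -1.85, and *Evx1*, another homeobox gene, had -2.75 and -1.68. The effects were -1.07 and -1.59 for *Apod*, a lipocalin, and -1.08 and -1.43 for *Fndc1*. *Nell1*, a secreted protein of skeletal tissue (1.24 and 1.46), was high in C59 at both times. None of these 5 differences passed. The closest was *Evx1* with 1.06 ± 0.32 (adjusted p = 0.0547; 0.82 without replicate 3), and it passed in 5 of 23 alternative analyses.

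A total of 24 genes with a mean of at least 1 CPM in every group formed a late set. They were called at 18 h and had an effect within 0.5 of 0 at 12 h. Their difference passed in the direction of the 18 h effect. Among the 10 with the largest differences were *Pax9*, *Pmaip1*, *Runx3*, *Hhip*, *Nusap1*, *Lum*, *Tpm3-rs7*, *Rpl26* and *H2-D1*, described above. The tenth was *Pitx1*, a hindlimb factor at low level, with effects of 0.33 and -1.10, a difference of -1.44 ± 0.41 (adjusted p = 0.0438; -1.70 without replicate 3; lost in 11 of 12 leave-one-out fits) and a pass in 11 of 23 alternative analyses. For *H2-D1* the controls fell by 1.58 on the log2 scale while C59 did not pass (0.11).

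For genes without a count in a group a fitted fold change depends on the prior count, so they are described by their levels. *Gm42047*, a long non-coding RNA (chr8:121833247-121841178, plus strand), had no count in DMSO at 12 h, where 3 counts over the group would correspond to 0.0551 CPM. It measured 10.3, 33.5 and 30.8 CPM in C59 at 12 h, at least 452-fold higher on average. Its levels at 18 h were 101, 38.0 and 75.7 CPM in DMSO and 0, 2.19 and 1.44 CPM in C59, so the order of the groups was opposite. *Nr1h5*, a nuclear receptor gene, had no count in either group at 12 h. The 18 h levels were 0, 10.2 and 0 CPM in DMSO and 18.4, 7.90 and 7.06 CPM in C59. The pseudogene *Gm11585* had no count in DMSO at 18 h and 4.63, 6.17 and 7.06 CPM in C59 at that time, at least 147-fold higher on average. The antisense gene *Gm10503* was counted only in DMSO at 12 h (3.67, 7.33 and 3.74 CPM), and since the strand of counting was not stated, its reads cannot be told apart from those of the gene on the other strand. *Gm3468* had no count in C59 at 18 h and 1.04, 0 and 0.759 CPM in DMSO, at least 12.1-fold higher on average. A control library was thus without a count as well. *D830013O20Rik* had no count in C59 at 18 h and 1.36 CPM on average in DMSO, at least 27.4-fold higher.

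Markers of other cell types were examined beside these results. With edgeR none of 12 erythroid, 14 macrophage and 15 surface ectoderm genes passed, and 1 of 14 endothelial (*Erg*) and 1 of 10 neural crest and nerve genes did, against 8.49% of all genes. Without replicate 3 the counts were 1, 1, 1, 3 and 2. At an unadjusted p below 0.05 they were 1, 3, 2, 3 and 2, and with DESeq2 they were 0, 0, 0, 3 and 2. The latter was *Erbb3*, the neuregulin receptor of Schwann cell precursors, with -0.65 ± 0.16 (-0.66 without replicate 3; lost in 5 of 12 leave-one-out fits). The summed level of the macrophage markers, all 14 with a count in every library, was 51.3 to 59.5 CPM in DMSO and 83.0 to 88.2 CPM in C59 at 12 h, and 68.2 to 75.1 CPM and 91.3 to 105 CPM at 18 h. For surface ectoderm, all 15 markers had a count in every library, and the sum was 391 to 433 CPM in DMSO and 517 to 712 CPM in C59 at 12 h, and 387 to 410 CPM and 511 to 587 CPM at 18 h. Erythroid markers, 12 of 13 with a count in every library, summed to 5550 to 8190 CPM in DMSO and 7070 to 10100 CPM in C59 at 12 h, and to 4320 to 5430 CPM and 5200 to 8070 CPM at 18 h. The endothelial sum was 486 to 528 CPM and 597 to 662 CPM at 12 h, and 496 to 531 CPM and 528 to 594 CPM at 18 h. Neural crest markers summed to 91.0 to 115 CPM and 152 to 189 CPM at 12 h, and to 130 to 142 CPM and 160 to 180 CPM at 18 h. The part of these cell types in the differences above was not tested. Among immediate early genes, *Ier2* alone of 11 passed (0.50 ± 0.12 (0.41 without replicate 3; lost in 6 of 12 leave-one-out fits)).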

How the data were processed

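RNA was sequenced from forelimb buds, and 12 of 30 libraries were used, grouped by label. Reads had been trimmed by the authors (Cutadapt 1.16) and aligned to mm10 (STAR 2.7.0e), and the deposited table holds the raw counts per gene that STAR gave, without normalization and without chromosomes X, Y and M. No source states whether counting used strand. The FPKM values deposited by the authors (cufflinks 2.2.1) served for alternatives and the sex check. Libraries were used as deposited, without merging any of them.

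The counts were fitted with edgeR 4.0.16 in R 4.3.3 (two-sided quasi-likelihood F test, TMM scaling, filterByExpr set to 10 counts and a total of 15) on autosomal protein-coding genes, with 4 group means and contrasts between them, and p-values were adjusted by Benjamini-Hochberg. The fit was also run on simulated counts with the same spread of each gene in every group. That simulation could not check the fit under the larger spread of C59 at 18 h. Limma 3.58.1 and DESeq2 1.42.0 were alternatives, besides other scalings, filters, a replicate block and leaving out each library.

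The members and gene lists were chosen with earlier results of these data known, as were the rules for naming genes: list members, the 12 largest differences each way, persistent, late and reversed genes above 1 CPM, and up to 6 genes with a group at 0. A single gene that these rules name is not reported here. Floors of 3 counts per group cover counting error only. Gene positions are those of the mm10 annotation, and promoters are from RefSeq.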

Additional observations from a re-analysis of the deposited data

Results flagged for a closer look

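The effect of C59 differed between 12 h and 18 h at 1162 genes by the interaction test itself. A total of 7 genes were called at both times in opposite directions. With a mean of at least 1 CPM in every group these were *Inhba* (difference of effects -2.78) and *Cbln4* (-2.72). The others were below that level in at least one group: *5730507C01Rik* (5.36), *Gm32687* (9.67), *Aadat* (-2.46), *Orm2* (-4.22) and *Zfp433* (-2.82). *Gm32687* measured at most 0.112 CPM in C59 at 12 h and at most 0.0542 CPM in DMSO at 18 h, so the size of its difference depends on the prior count of the fit.

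Outside the genes tested, the long non-coding RNA *Gm42047* had a mean of 24.9 CPM in C59 at 12 h and no count in the controls of that time. In the FPKM table, 3 libraries held both *Xist* and Y-linked transcripts above 1 FPKM, namely 1 library each of C59 at 12 h, DMSO at 18 h and C59 at 18 h. The study's methods describe dissecting more than a single pair of buds and isolating the RNA of each replicate from a single pair. Whether these 3 libraries held RNA of more than a single embryo was not tested.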

How the results depend on the processing

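The number of genes whose effect changed was 1162. It was 2491 with all 30 libraries in the fit and 286 with a difference beyond 1 as well, and ran from 656 to 2105 when single libraries were left out. Without DMSO 12 h replicate 1, C59 12 h replicate 2 and DMSO 18 h replicate 2 it was 709, 723 and 735. It was 1647 with DESeq2, and from 934 to 1181 under the other tools, scalings and filters. The effect at 12 h was called at 159 genes on log2(FPKM + 1), and at 597 to 782 when single libraries were left out, against 698. The effect at 18 h was called at 120 genes with limma voom and 31 on log2(FPKM + 1), and at 173 to 241 when single libraries were left out, against 211. Changes in DMSO passed at 800 genes with DESeq2, 1436 with voom and 1251 with all 30 libraries, and at 78 to 1640 when single libraries were left out, against 418. Changes in C59 passed at 906 genes with voom and 3165 with all 30 libraries, and at 934 to 2760 when single libraries were left out, against 1751. The cause was not tested.

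With the replicate number as a block, 1123 genes passed for the change of effect, 699 and 216 were called at 12 h and 18 h, and 454 and 1710 changed in DMSO and C59. Correlations between same-numbered libraries of different groups ran from -0.26 to 0.24 over 18 pairs, with 5 above 0.1, so the numbers were not taken to pair the libraries. Of the 148 genes named with a fitted difference, 125 passed, 4 of these not under the block. No difference reversed past the threshold under any alternative. Of the 125, 95 passed in every leave-one-out fit and 30 were lost in at least 1, with 12 to 28 lost without any single library other than C59 18 h replicate 3. With upper-quartile factors 4 were lost, and on log2(FPKM + 1), 17. The median over all genes moved to -0.06 with upper-quartile factors. Over all alternatives, the median difference ran from 0.28 to 0.48 for WNT feedback inhibitors, 0.26 to 0.45 for DNA replication, -0.61 to -0.43 for mitosis and -0.79 to -0.33 for cartilage, with 7 to 8 positive, 11 to 20 positive, 12 to 27 negative and 3 to 9 negative passes.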
